A study of Bactrocera oleae with 8 samples.

Results

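Nucleases of the digestive tract cut the DNA and RNA of ingested food into short pieces that can be broken down further and taken up. In insects such enzymes are made mainly by the midgut and released into its lumen, beside the proteases, lipases and glycosidases that act on the other polymers of a meal. A larva that bores through olive pulp swallows plant cells together with their nuclei and the microbes that live in the fruit.

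In the study of the olive fruit fly *Bactrocera oleae*, 3 contigs of its transcriptome were named as nucleases with a role in digestion: contig00776, contig01101 and contig01241. These 3 of the 20516 entries on the array were taken by their contig names. Contig01241 is described as a deoxyribonuclease I, an endonuclease that cleaves DNA. The best database matches of contig00776 and contig01101 are gene models of other flies, GK10387 of *Drosophila willistoni* and GH19648 of *Drosophila grimshawi*, whose names carry no function, so their place among the nucleases rests on the study's own annotation and was not checked here. Each contig had 4 probes, all on the forward strand, and there were 0 reverse-strand entries for them. A further contig of the study's digestion list, contig01809, also carries the description deoxyribonuclease I and was set beside the 3.

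Total RNA came from whole 2nd-instar larvae of a wild population, in pools of 20 larvae per extract. Larvae fed on green olives and on black olives were taken out of fruit picked in September and in January from 1 orchard. The artificial diet group came from infested olives of that orchard kept at 25 °C, whose emerging females laid eggs in wax, and the hatched larvae grew on a medium with olive oil, sugar, brewer's yeast and soy hydrolysate. Feeding regime, season and rearing therefore varied together and cannot be told apart. In whole larvae, a smaller share of cells that express a gene and less RNA per such cell cannot be told apart either.

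The 8 arrays lay on 1 slide and carried 2 dyes each. The Cy5 channel held green olive larvae on all of them, while Cy3 held black olive larvae on 4 arrays and artificial diet larvae on the other 4. A difference between green olives and either other regime includes any dye difference, and the comparison of black olives with artificial diet runs within Cy3. The methods describe 4 green olive replicates for both sets of arrays, so the same green olive extracts may stand on both, and an n of 8 for green olives counts channels. Spots well above background made up 60.6 to 64.1% of a green olive channel, 56.9 to 67.2% of a black olive channel and 65.5 to 66.9% of an artificial diet channel.

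The study named these 3 contigs among those over-expressed in green compared with black olives on these arrays. Values of that comparison are therefore a description, with no test. Green olives against artificial diet was measured on the other 4 arrays and is the comparison that played no part in the choice, except through green olive extracts that both sets may share. Both sets also hold green olives in Cy5. Black olives against artificial diet uses the black olive arrays again.

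All 12 probes gave signals well above background in all 16 channels, so each level was measured and none is a bound. Raw median signals of the contig00776 probes ran from 44555 to 189497 in green olives, 13118 to 47161.5 in black olives and 21355.5 to 160524 in artificial diet. For contig01101 they ran from 1840.5 to 6752.5, 557.5 to 1728 and 613.5 to 2786.5, and for contig01241 from 471 to 1669, 147 to 598 and 328.5 to 1470, in the same order. Local backgrounds of these spots were 40 to 104 in Cy5 and 20 to 62 in Cy3. Probes bind with different strengths, so signals were compared between regimes for 1 contig and never between contigs.

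The 3 nuclease contigs had their lowest levels in larvae from black olives. That these lay below the green olive levels is largely set by the choice of contigs. Their mean levels in green olives and in artificial diet differed by less than 1 on the log2 scale. Levels are given as normalized log2 intensities, on which a difference of 1 is a doubling.

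Contig00776 stood at 16.24, 16.48, 16.27 and 16.18 in the green olive channels beside black olives, and at 16.53, 16.29, 16.17 and 16.07 in those beside artificial diet (replicates 1 to 4 in each). In black olives it stood at 15.02, 14.61, 14.94 and 14.65, and in artificial diet at 15.96, 15.67, 17.13 and 15.82. Every black olive level was below every level of the other regimes. Means were 16.28 ± 0.16 for green olives (SD, n = 8), 14.80 ± 0.21 for black olives (SD, n = 4) and 16.14 ± 0.67 for artificial diet (SD, n = 4). The ranges of green olives and artificial diet overlapped, and artificial diet replicate 3 was above every green olive channel.

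Contig01101 was measured at 11.47, 11.92, 11.43 and 11.59 in green olives beside black olives and at 11.96, 11.47, 11.47 and 11.58 beside artificial diet. Its levels were 10.61, 9.91, 10.47 and 10.40 in black olives and 10.93, 11.37, 11.10 and 11.26 in artificial diet. For this contig the ranges of the 3 regimes did not overlap, with green olives highest, artificial diet between and black olives lowest. The highest artificial diet level was 11.37 and the lowest green olive level 11.43. The share of all contigs with this order was not counted. The step from artificial diet (11.16 ± 0.19, SD, n = 4) to green olives (11.61 ± 0.21, SD, n = 8) runs across the dyes. Black olives averaged 10.35 ± 0.31 (SD, n = 4).

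Contig01241, the deoxyribonuclease I, varied least among green olive larvae, with levels of 9.78, 9.80, 9.81 and 9.91 beside black olives and 9.96, 9.89, 9.73 and 9.96 beside artificial diet. Black olive levels were 8.81, 7.95, 8.69 and 9.13, and artificial diet levels were 10.54, 9.73, 10.13 and 9.69. All 4 black olive levels were lower than all others, whereas artificial diet levels reached above and below the green olive range. The mean was 9.86 ± 0.09 in green olives (SD, n = 8), 8.65 ± 0.50 in black olives (SD, n = 4) and 10.02 ± 0.40 in artificial diet (SD, n = 4).

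**Figure D1:**
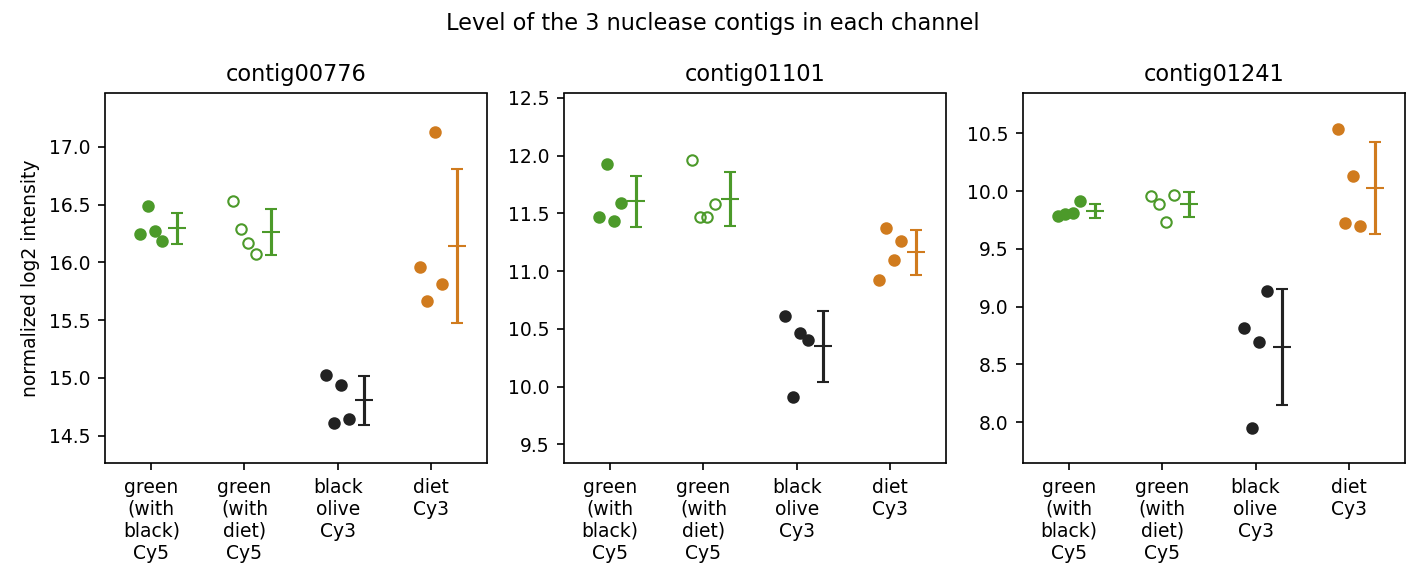
Normalized log2 intensity of the 3 nuclease contigs (y axis) in every channel, grouped by regime and dye (x axis); points are replicates 1 to 4 from left to right, the cross bars are means and the whiskers 1 SD (n = 4). In each panel the 4 black olive points lie below all other points, and for contig00776 artificial diet replicate 3 sits at 17.13, above the rest.

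Larvae on green olives were compared with larvae on artificial diet to look for genes linked to development inside the fruit. None of the 3 contigs passed the thresholds, an adjusted p-value below 0.05 over all contigs and an absolute log2 fold change above 1. In this comparison 1.05% of all contigs were called in either direction and 0.77% were called higher in green olives. Without the fold threshold, 11% of contigs passed and 0 of the 3 nucleases did, with unadjusted limma p-values of 0.635, 0.0543 and 0.495.

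For contig00776 the log2 ratios of green olives over artificial diet were 0.57, 0.62, -0.96 and 0.25 on the 4 arrays. The fold change was 0.12 on the log2 scale (standard error 0.24, 95% interval -0.44 to 0.68, limma adjusted p = 0.80). Replicate 3 had the opposite sign to the other 3 arrays, and without it the value was 0.48 (adjusted p = 0.10). All 4 probes gave the negative ratio there, from -0.73 to -1.14, and the shift lay in the diet channel, at 17.13, while the green olive channel of that array was at 16.17. Over 13909 contigs, that array had the smallest root mean square deviation of log2 ratios from the mean of its set, 0.246 against 0.263 to 0.457 for the others.

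For contig01101 the ratios were 1.04, 0.10, 0.37 and 0.32, above 0 on each array, as for 20.9% of all contigs. The fold change was 0.46 on the log2 scale (standard error 0.20, 95% interval -0.01 to 0.92, limma adjusted p = 0.19). Without replicate 1, whose ratio was the highest, it was 0.26 (adjusted p = 0.51). Of all contigs, 3.91% had a larger fold change in this direction.

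For contig01241 the ratios were -0.58, 0.16, -0.40 and 0.27, with 2 arrays on either side of 0. The fold change was -0.14 on the log2 scale (standard error 0.19, 95% interval -0.58 to 0.31, limma adjusted p = 0.70). The 95% intervals of all 3 contigs ended below 1 at their upper end. These intervals are not adjusted for the number of contigs and contain any dye difference.

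In green against black olives, the comparison from which the contigs were drawn, the log2 ratios of contig00776 were 1.22, 1.88, 1.33 and 1.54. They averaged 1.49 (standard error 0.24), a 2.81-fold difference. Contig01101 gave 0.86, 2.01, 0.97 and 1.18, an average of 1.25 (standard error 0.20) or 2.39-fold. Contig01241 gave 0.97, 1.85, 1.11 and 0.78, an average of 1.18 (standard error 0.19) or 2.26-fold. All 12 ratios were above 0, and 20.7% of all contigs had 4 ratios above 0. All 3 passed both thresholds here, as 1.74% of all contigs did in this direction, which the choice of contigs fixes and from which nothing is read.

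Black olive replicate 2 carried the highest ratio for each of the 3 contigs. That array also had the largest root mean square deviation from its set over 13909 contigs, 0.457. Its part in the values of the nucleases was not tested beyond leaving it out. Without it the averages were 1.36 for contig00776, 1.002 for contig01101 and 0.95 for contig01241, the last of which is under the fold change threshold.

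**Figure D2:**
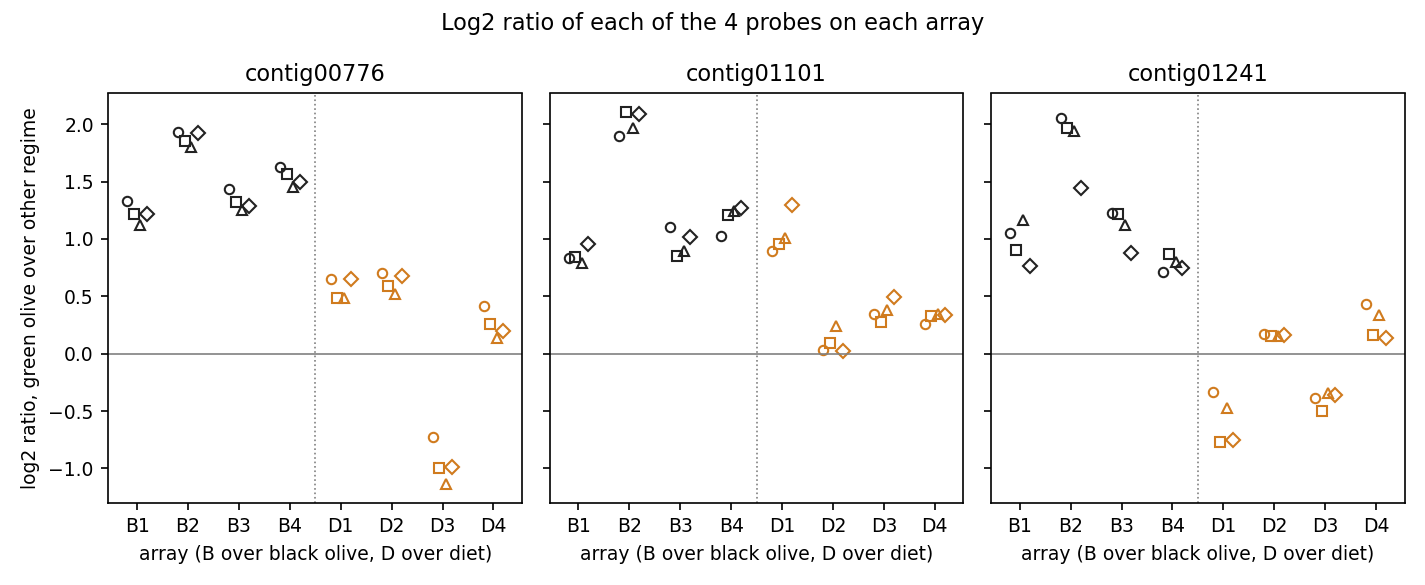
Log2 ratio of green olives over the other regime (y axis) for each of the 4 probes of a contig (symbols) on each array (x axis: B1 to B4 over black olives, D1 to D4 over artificial diet). Symbols of 1 array lie close together, B2 is the highest black olive array in all 3 panels, and D3 is the lowest array for contig00776.

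The 4 probes of a contig differed little from each other. Averaged over the arrays, the probes of contig00776 gave log2 ratios of 1.41 to 1.58 over black olives and 0.002 to 0.26 over artificial diet. Those of contig01101 gave 1.21 to 1.33 and 0.38 to 0.54, and those of contig01241 gave 0.96 to 1.26 and -0.24 to -0.03. Every probe of the 3 contigs had a higher mean ratio over black olives than over artificial diet, a direction largely set by the choice of contigs. The SD among the 4 probe means was 0.05 to 0.15 on the log2 scale, while the SD among the 4 arrays of a set was 0.29 to 0.74. Probes of 1 contig measure the same RNA and are not replicates of a regime.

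Larvae from black olives were compared with larvae on artificial diet through the difference between their log2 ratios to green olives. The values of all 3 contigs were below 0. They carry the black olive arrays on which the contigs were chosen, so they are a description and no independent test. In this comparison 0.936% of all contigs were called in either direction and 0.609% were called lower in black olives. Contig01241 had a fold change of -1.32 on the log2 scale (standard error 0.27, 95% interval -1.94 to -0.69), or 2.49-fold lower in black olives. It alone of the 3 was past both thresholds, and with any 1 of the 8 arrays left out it no longer was, at values of -1.45 to -1.09. Nothing is read from this count.

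Contig00776 had a value of -1.37 (standard error 0.34, 95% interval -2.16 to -0.58), which is 2.58-fold between the regimes. The spread of the artificial diet arrays was wide for this contig, and without artificial diet replicate 3 the value was -1.01 (standard error 0.17). Contig01101 had -0.80 (standard error 0.29, 95% interval -1.46 to -0.14), which is 1.74-fold, and the value was -0.54 without black olive replicate 2. Fold changes lower than these were found for 0.551% of all contigs in the case of contig00776, 2.19% for contig01101 and 0.619% for contig01241. These shares carry the choice of contigs on the black olive arrays.

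The 4 log2 ratios over black olives lay above the 4 over artificial diet for contig00776 and contig01241, as for 7.91% of all contigs. For contig01101 the sets overlapped, since artificial diet replicate 1 (1.04) exceeded black olive replicates 1 and 3. Read in the Cy3 channels alone, every black olive level of the 3 contigs was below every artificial diet level, which held for 10.2% of all contigs. Both orders are largely set by choosing the contigs as low on the black olive arrays, and nothing is read from these shares. The green olive means of the 2 sets of arrays differed by 0.03, -0.02 and -0.06 on the log2 scale for contig00776, contig01101 and contig01241. The Cy3 means of black olives minus artificial diet differed by -1.34, -0.82 and -1.37, so the gap between the sets lay in the Cy3 channels.

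The arrays stood in 2 rows of the slide. Row 1 held 3 black olive arrays and 1 artificial diet array, and row 2 the reverse. Within row 1 the difference of black olives from artificial diet was -0.91 for contig00776, -0.24 for contig01101 and -1.89 for contig01241. Within row 2 it was -1.57, -0.92 and -0.77. The direction was the same in both rows for the 3 contigs, which were chosen as low on these black olive arrays, so nothing is read from it. Each of these differences rests on 1 array on 1 side, and the sizes differed between the rows. With the row as a covariate contig00776 was at -1.24, contig01101 at -0.58 and contig01241 at -1.33, in place of -1.37, -0.80 and -1.32. Contig01241 was then no longer called (limma adjusted p = 0.11).

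**Figure D3:**
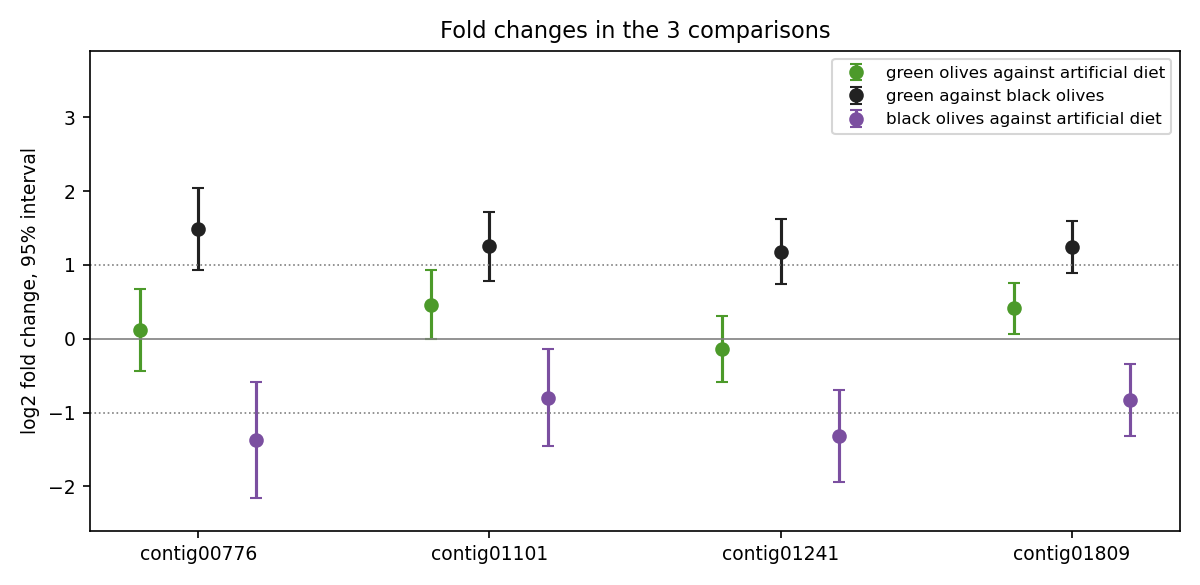
Log2 fold change with its 95% interval from limma (y axis) for the 3 nuclease contigs and contig01809 (x axis) in the 3 comparisons; dotted lines mark the threshold of 1 in either direction. Values against black olives are near 1.2 to 1.5 for all 4 contigs by the way they were chosen, and the intervals of green olives against artificial diet end below 1.

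The other contig described as a deoxyribonuclease I, contig01809, was also lowest in black olives. It averaged 17.27 ± 0.10 in green olives (SD, n = 8), 16.04 ± 0.13 in black olives (SD, n = 4) and 16.85 ± 0.35 in artificial diet (SD, n = 4). Its log2 fold change was 0.41 for green olives against artificial diet (limma adjusted p = 0.12, standard error 0.15). Without artificial diet replicate 3 it was 0.63 (adjusted p = 0.022), and with median centring in place of loess 0.86 (adjusted p = 0.013), both under the fold threshold. For black olives against artificial diet it was -0.83 (standard error 0.21). In green against black olives, where it was also chosen by the study, it was at 1.24 (standard error 0.15). Its ratio over artificial diet was negative on replicate 3 alone, at -0.23. On that array contig00776 (-0.96) and contig01241 (-0.40) were negative as well.

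The log2 ratios of the 3 contigs did not move as 1 unit over the artificial diet arrays. Each ratio carries the green olive channel as well as the diet pool. Replicate 1 had the highest ratio for contig01101 (1.04) and the lowest for contig01241 (-0.58). On that array the green olive level of contig01101 was 11.96, against 11.47 to 11.58 on the other artificial diet arrays, and its diet level was 10.93. Replicate 3 had the lowest ratio for contig00776, while contig01241 was at -0.40 and contig01101 at 0.37 there. Among the black olive arrays replicate 2 was highest for all 3. The lowest array was replicate 1 for contig00776 and contig01101 and replicate 4 for contig01241. Pearson correlations between pairs of the 3 contigs were 0.76 to 0.98 over the 4 black olive arrays and -0.79 to 0.31 over the 4 artificial diet arrays. Contig01809 instead had its highest black olive ratio on replicate 4, at 1.54. Over the artificial diet arrays its Pearson correlation was 0.98 with contig00776, 0.02 with contig01101 and 0.48 with contig01241. Over the black olive arrays these values were 0.18, -0.03 and -0.46, and over all 8 arrays 0.95, 0.57 and 0.74.

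The study marked 22 other contigs for digestion in green against black olives, among them lysozymes, serine proteases, a phospholipase, a peritrophin and contig01809. Not all are enzymes of digestion by description: contig05067, contig07056 and contig07071 are apolipoprotein D or like it, and contig05196 is lethal 34fc. Contig01628, contig04603 and contig05361 match gene models whose names carry no function. The list follows the marks in the study's table, where contig00850 and contig04956, metalloproteases that its text also counts under digestion, carry none. These 22 too were chosen on the black olive arrays. Green olives are in Cy5 on both sets and extracts may be shared, so the choice may raise values over artificial diet too. In green olives against artificial diet, 2 of these 22 were called higher, where 0.77% of all contigs were, and 0 were called lower. Of the 22, 9 had an adjusted p-value below 0.05 with a higher level in green olives, where 5.66% of all contigs did. The median log2 fold change of the 22 was 0.34, beside 0.01 over all contigs and 0.12 over the 3 nucleases. The highest was contig04849, a trypsin (1.53, standard error 0.14, limma adjusted p = 0.00074), and the lowest was contig08507, a lysozyme (-0.57, standard error 0.20, limma adjusted p = 0.10). The values of the 3 nucleases, -0.14 to 0.46, lay inside this range.

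In black olives against artificial diet, all 22 had values below 0, with a median of -0.88. Of them 6 were called lower and 0 higher, where 0.609% of all contigs were called lower. A shift in this direction is largely set by choosing the contigs as lower in black than in green olives, and nothing is read from it. The extreme values were -2.30 for contig06851, a lysozyme, and -0.05 for contig04849.

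**Figure D4:**
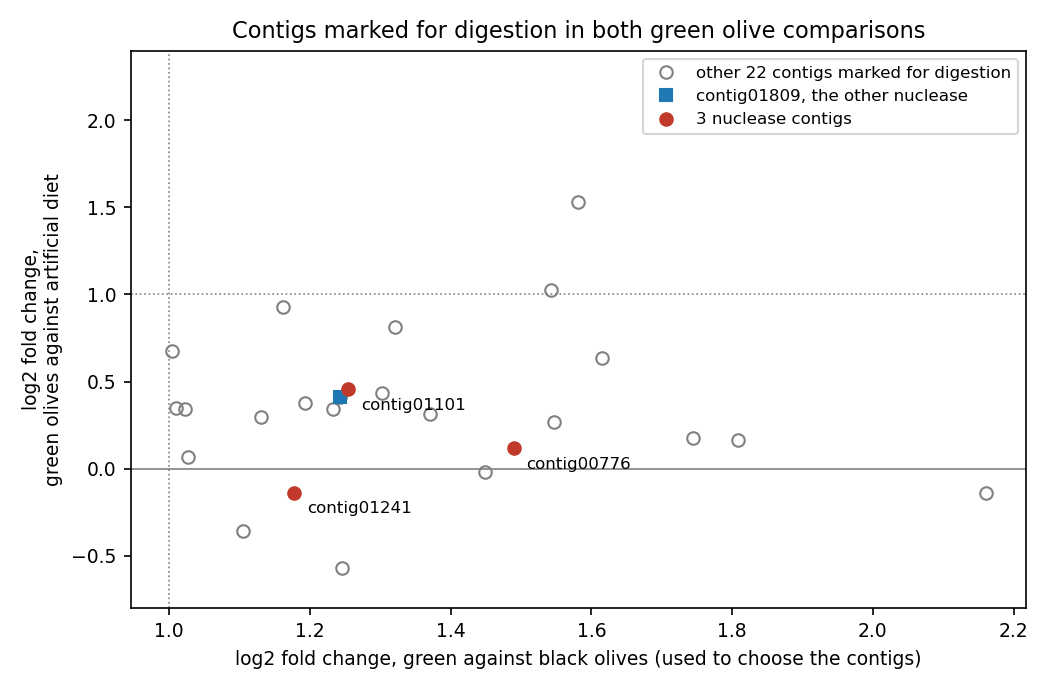
Log2 fold change of green olives against artificial diet (y axis) over that of green against black olives (x axis) for the contigs marked for digestion; red points are the 3 nuclease contigs, the blue square is contig01809 and open circles are the list of 22 that includes it. All points lie right of 1 because the contigs were chosen there, and only 2 of the open circles, at 1.03 and 1.53, lie above 1 on the y axis.

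Contigs whose log2 ratios followed the same profile over the 8 arrays were ranked by Pearson's correlation, among 13908 other contigs that passed the filter on dim signals. For contig00776 the highest values were contig13864 and contig11314, both at 0.99, and rc_contig08887 at 0.98. For contig01101 they were rc_contig07887 at 0.99, rc_contig04936 at 0.98 and contig07567 at 0.98. For contig01241 they were rc_contig03234 and rc_contig07102, both at 0.98, and contig06953 at 0.96. The study's tables used here describe none of these 9. The points of each correlation share a slide, a dye arrangement and possibly green olive extracts, and the 2 sets of arrays differ for each nuclease. A correlation above 0.9 was found with 217 contigs for contig00776, 246 for contig01101 and 155 for contig01241, or 1.56, 1.77 and 1.11% of those compared. Likeness in profile did not mean likeness in size, since contig13864 differed by 0.74 between green and black olives and rc_contig08887 by -0.04.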

How the data were processed

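Each array was deposited as scanner output of Agilent Feature Extraction 10.7.3.1 per the file headers (the submitters' processing notes name 10.5). The authors deposited median intensities of spots and of their surroundings for Cy5 and Cy3, not normalized. The deposited files also hold processed intensities and a log10 ratio of Cy5 over Cy3, and the series' value table differs from that ratio by at most 0.005.

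The steps of the methods were repeated with limma (3.58.1) and data.table (version 1.17.8) under R (4.3.3). Background was corrected by normexp (offset 50), followed by loess within arrays, Aquantile between arrays, and 1 linear model over all 8 arrays with empirical Bayes statistics (6 residual and 2.21 prior degrees of freedom). The 1319 control spots of an array were left out after background correction and the 46 to 128 outlier spots got no weight. Spots of a probe were averaged, then probes of a contig. Benjamini-Hochberg adjustment ran over all 20516 contigs. Calls needed an adjusted p-value below 0.05 together with a log2 fold change beyond 1 in either direction. The filter on dim signals kept a contig if, in 1 regime or more, some probe of it passed the scanner's background test throughout. Black olives against artificial diet is the difference of the 2 coefficients. The fit was tested on simulated data.

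The members and lists were chosen with earlier results of these data known. Named contigs are the 3 members, contig01809, the 3 most similar profiles of each member, and the extremes of each digestion list. Descriptions come from the study's tables, which cover contigs called there. Probe and contig sequences were not used here, and 0 of the members could be matched to the RefSeq gene table. The number of arrays limits the precision. Extracts of 20 pooled larvae are the replicates. Alternatives were other background corrections and normalizations, the filter, the slide row, a replicate block and leaving out each array.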

Additional observations from a re-analysis of the deposited data

How the results depend on the processing

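None of the 3 nuclease contigs was called in green olives against artificial diet under any of the 21 alternatives. Leaving out 1 array in turn gave -0.05 to 0.48 for contig00776, 0.26 to 0.58 for contig01101 and -0.27 to 0.01 for contig01241. The sign of contig00776 turned without artificial diet replicate 1 (-0.029) or replicate 2 (-0.048), and that of contig01241 without artificial diet replicate 1 (0.011). Median centring in place of loess gave 0.48 for contig00776 (adjusted p = 0.26). The cause was not tested. In green against black olives the 3 contigs passed the thresholds in all alternatives but 1, contig01241 without black olive replicate 2. In the main fit 1.74% of all contigs were called in this direction. This comparison and black olives against artificial diet both hold the arrays on which the contigs were chosen. Nothing is read from their calls. In black olives against artificial diet contig01241 was called in 9 of 20 alternatives, and contig00776 was called only with the filter on dim contigs, which tests fewer contigs (adjusted p = 0.049). With the series' value table contig01241 was at -1.54 (adjusted p = 0.051).

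The replicate numbers were not used to pair the samples in the main fit. Log2 ratio deviations of same-numbered arrays correlated above 0.1 in 1 of 4 pairs (-0.73 to 0.46), and 1 of 4 arrays correlated best with its own number. For green olive levels the same-numbered correlations were -0.60 to 0.85. The best matches of black olive replicates 1 to 4 were then artificial diet replicates 3, 1, 2 and 4. Whether the sets share green olive extracts under other numbers was not tested. With the replicate number as a block, contigs called were 120 of green olives against artificial diet and 34 of black olives against artificial diet, in place of 216 and 192. The share higher in black olives among the latter went from 34.9 to 67.6%, and contig01241 lost its call there (adjusted p = 0.12). The block changed no other call of the 3 contigs.

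Scanner processed signals gave 827, 1016 and 345 called contigs in place of 216, 462 and 192 (green olives against artificial diet, green against black olives, black olives against artificial diet), and moved the median of all contigs in the last to 0.15. The value table gave 613 and 961 in the first 2. Among calls of green against black olives, 77.3% were higher in green olives, with 63.3% for processed signals and 64.5% for the value table. For green olives against artificial diet the value table gave 55.8% in place of 73.1%. With slide row as covariate there were 122 calls for black olives against artificial diet. Leaving out 1 array gave 129 to 235, 393 to 536 and 118 to 206 calls. The lowest were without artificial diet replicate 4 (129) and replicate 3 (118), and 123 were called without replicate 1.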

Other observations

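The study marked 11 contigs for digestion in green olives against artificial diet, most of them trypsins and other serine proteases, and none is a nuclease by its description. In green against black olives 3 of these 11 were called higher, where 1.74% of all contigs were, with a median log2 fold change of 0.82. They were contig04487, described as a circadian clock-controlled protein, and contig01887 and contig04849, which the study also marked in that comparison. The difference between this list and the 3 nucleases was not tested, and the comparisons share channels.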
